A study of Mus musculus with 3 samples.

Results

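Endocrine cells of the pancreas store peptide hormones in dense-core granules, and 8 genes of this machinery were followed here: Pcsk1, Pcsk2, Cpe, Chga, Chgb, Scg2, Ptprn2 and Slc30a8. The rule takes rows by gene identifier and uses no signal value, though the list was drawn up with earlier results of these data known. The genes are 8 of 24318 rows with an identifier. The measurement was H3K36me3, a histone mark laid over the bodies of transcribed genes, read by CUT&Tag, in which an antibody brings a transposase to the mark so that the DNA beside it is cut and tagged. Wild-type C57BL/6 mouse embryos gave fetal pancreas of 3 stages, E11.5, E13.5 and then E15.5, and epithelial cells carrying the surface protein EpCAM were sorted from it by flow cytometry. Each stage has 1 library, so no test, p-value or spread between embryos exists, and each difference below is a size in these libraries. The labels give no count of embryos per library. EpCAM marks pancreatic epithelium as a whole, so endocrine cells are a part of the sorted population that these data do not measure. A larger share of cells with the mark and more mark per cell cannot be told apart.

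Prohormones enter the granule as long precursors. The convertases Pcsk1 and Pcsk2 cut them after pairs of basic residues, and carboxypeptidase E (Cpe) trims the residues left at the new ends. The granins Chga, Chgb and Scg2 are acidic proteins that aggregate with the hormone cargo and help the granule form, while Ptprn2 and Slc30a8 sit in the granule membrane. On GRCm38.p6, RefSeq places the enzymes Pcsk1 (ENSMUSG00000021587, chr13:75089420-75134861), Pcsk2 (ENSMUSG00000027419, chr2:143546133-143816284) and Cpe (ENSMUSG00000037852, chr8:64592542-64693109) on different chromosomes. The granins are Chga (ENSMUSG00000021194, chr12:102554941-102565027), Chgb (ENSMUSG00000027350, chr2:132781642-132795079) and Scg2 (ENSMUSG00000050711, chr1:79434366-79440026), and the membrane proteins Ptprn2 (ENSMUSG00000056553, chr12:116485695-117278167) and Slc30a8 (ENSMUSG00000022315, chr15:52295553-52335798). All 8 are known from mature islets, and in the mouse the first endocrine cells are present early in pancreas development, with most arising in a later wave.

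Every row carries 3 columns headed PR, GB and SE, whose meaning the headers do not spell out. The GB values could be traced to windows of a definite length. That length equalled the RefSeq gene length exactly for Chga (10087 positions) and Slc30a8 (40246), and came within 25 positions of it for Pcsk2 (270150), Cpe (100559), Chgb (13437), Scg2 (5659) and Ptprn2 (792448). For Pcsk1 the window of 45003 positions was 439 shorter than the RefSeq gene. GB is therefore read as the mean signal over the gene from start to end, and the 8 lengths bear out the names attached to the 8 identifiers. PR is a mean over 6000 positions and SE over 12000 positions that hold the PR window. Neighbouring genes with close starts had correlated PR, whereas neighbours with close ends did not, so both windows are read here as lying around the gene's start. No source states this. Values are in deposited units, and percentiles rank a gene among all identified rows of its library, with ties at their midpoint.

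How much signal stands behind a value can be read in steps, the unit of which every window sum of a library was a whole multiple. The median PR window held 146 steps at E11.5, 132 at E13.5, then 206 at E15.5. As a yardstick, the squared difference between 2 libraries in summed GB steps was divided by their sum and averaged over the 3251 rows of 30000 to 60000 positions. It was 336 steps for E15.5 and E11.5, 324 for E15.5 and E13.5 and 167 for E13.5 and E11.5. The quotient was larger in longer rows, between 282 and 407 steps over 4 length classes for E15.5 and E11.5 and between 136 and 206 for E13.5 and E11.5. It holds any change between stages as well as scatter, so it gives only a rough scale, on which sums of that size are small. The E15.5 library stood apart, with a mean PR of 0.0118 against 0.00506 at E13.5 and 0.00552 at E11.5, and with GB at 0 in 20.3% of rows against 14.8% and 12.9%. Rows other than the 8 have no symbol in the files or reference tables used here, so markers of epithelium and of other cell types were not analysed.

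Over the gene bodies, the 8 genes sat in the middle of the library at the earlier stages and somewhat above it at E15.5. Their median GB percentile was 48.9 at E11.5, 48.6 at E13.5, then 59.9 at E15.5. The number above the 50th percentile was 4, 3 and 7 in stage order. Median GB of the 8 was 0.00422, 0.00409 and 0.00532, beside 0.00432, 0.00421 and 0.00371 for all identified rows. GB was higher at each later stage in 5 of the 8 genes (Pcsk1, Pcsk2, Chga, Chgb and Ptprn2), a pattern of any size that 19.8% of rows above the floor showed. It was lower at each later stage in Cpe and Scg2, against 17.8% of rows. Under the other scalings used, these orders changed for Chga and Cpe. Ptprn2 kept its order there, though its summed steps were 24916 at E11.5 and 24858 at E13.5. Under quantile normalization Chga had a log2 GB ratio of -0.28 for E15.5 against E13.5, and Cpe was higher at each later stage both there and after division by the median GB. The percentiles at E15.5 also depend on the rows at 0. Among rows above 0 the median GB percentile was 41.3, 39.7 and 50.3 in stage order, and 4 of the 7 genes ranked at E15.5 were above the 50th, with Pcsk2 at 44.7, Cpe at 45.0 and Slc30a8 at 49.0.

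**Figure D1:**
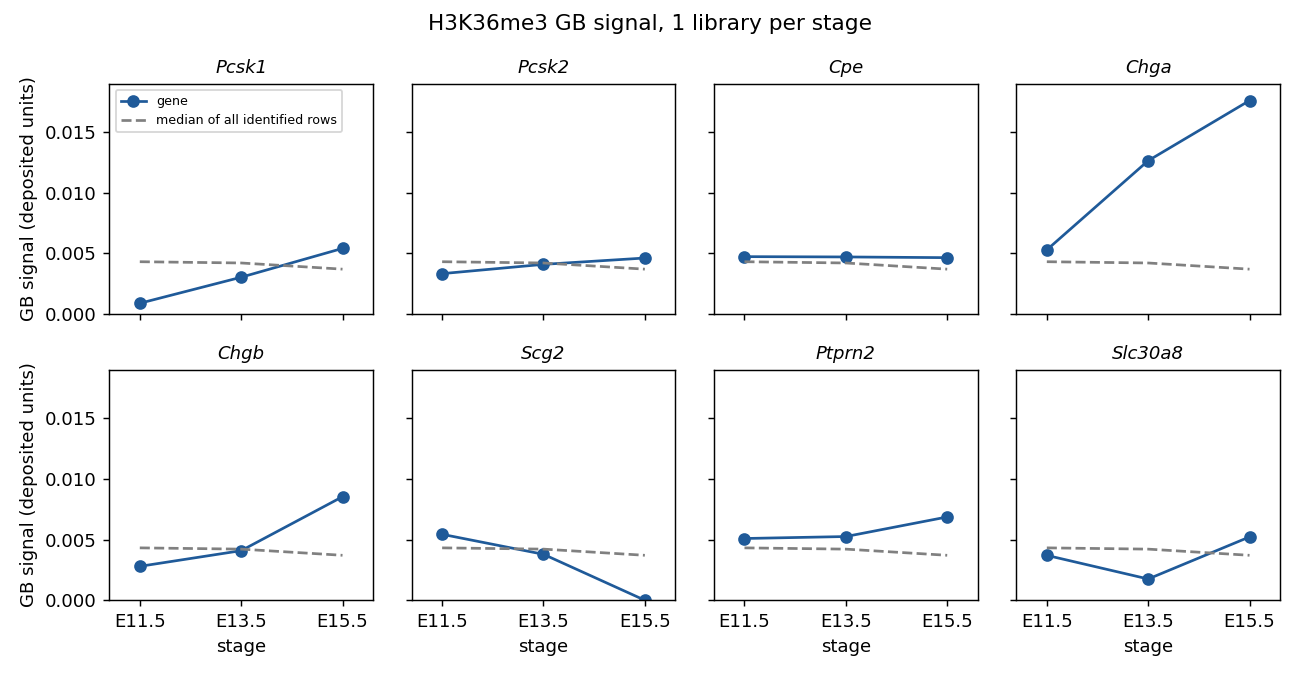
GB signal (deposited units, vertical axis) of each of the 8 genes at the 3 stages (horizontal axis), with 1 library per point and the median of all identified rows as a dashed line. Chga reaches 0.0176 at E15.5, Pcsk1 starts at 0.000892 at E11.5 and lies above the dashed line at E15.5, Cpe stays level, and Scg2 is at 0 at E15.5.

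Pcsk1, the convertase that opens proinsulin and other precursors, had the largest ratio of the 8 between E15.5 and E11.5. Its GB was 0.000892 at E11.5, 0.00304 at E13.5, then 0.00542 at E15.5, with percentiles of 20.1, 36.9 and 60.4. The gene was thus in the lower part of the library at E11.5 and above its middle at E15.5, at percentile 50.3 there among rows above 0. Summed over the body, these values were 248, 817 and 1496 steps. The E11.5 sum was below the rough scale of 336 steps for E15.5 and E11.5 at this length, so ratios against E11.5 rest on a small sum. Set at 0.00542 for E15.5 against 0.000892 for E11.5, GB was 6.07 times as high, a log2 ratio of 1.76 after adding 0.001 to both values. Of the 6358 rows whose body was within 2-fold of its length, that ratio was at percentile 97.8. RefSeq has 9122 genes in that range. Here and below, rows of like length hold only rows with GB above 0 in at least 2 libraries, as others have no recovered length. E13.5 against E11.5 gave a log2 ratio of 1.09, at percentile 95.6 of the same rows, and E15.5 against E13.5 gave 0.67, at percentile 78.9.

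Pcsk2, the convertase prominent in glucagon and insulin maturation, had a body of 270150 positions and much more signal behind each value. GB was 0.00334 at E11.5, 0.00410 at E13.5, then 0.00462 at E15.5, from 5566, 6616 and 7666 steps. Each later value was slightly higher, and its percentiles were 40.1, 48.7 and 55.9. The log2 ratio was 0.38 for E15.5 against E11.5, at percentile 88.1 of 1542 rows of like length. RefSeq has 1623 genes in that range, and some of the recovered lengths may be wrong. Cpe showed no such order. Its GB was 0.00474, 0.00471 and 0.00465 in stage order, from 2942, 2830 and 2872 steps, and the log2 ratio of E15.5 against E11.5 was -0.02. Its percentiles were 54.0, 55.0 and 56.1, beside the lower median GB of all rows at E15.5.

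Among the granins, Chga and Chgb had higher GB at later stages and Scg2 had lower GB. Chga, the precursor of several bioactive peptides, had GB of 0.00530 at E11.5, 0.0126 at E13.5, then 0.0176 at E15.5, the highest of the 8 genes at E13.5 and E15.5. Its percentiles were 58.7, 91.6 and 87.9, so its rank was not higher at E15.5 than at E13.5. The sums behind them were only 330, 762 and 1090 steps, since the gene is short. Part of the body shares positions with the PR window as read here, which held 182, 0 and 1094 steps. How much of the GB difference of Chga lies in shared positions was not tested. E15.5 against E11.5 was a ratio of 3.32 and a log2 ratio of 1.56, at percentile 82.9 of 6955 rows of like length. E13.5 against E11.5 gave 1.12, at percentile 84.6. Short bodies scattered widely, and 32.9% of tested rows of like length were at least 2-fold higher at E15.5 than at E11.5.

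Chgb, the sister granin, had GB of 0.00280, 0.00409 and 0.00854 in stage order, at percentiles 34.8, 48.5 and 73.1. The sums were 232, 328 and 704 steps, and part of the body shares positions with the PR window as read here. E15.5 against E11.5 gave a ratio of 3.05 and a log2 ratio of 1.33, at percentile 82.3 of 7518 rows of like length, 29.1% of which, among those tested, were also at least 2-fold higher. Scg2, the precursor of secretoneurin, went the other way. GB was 0.00544 at E11.5 and 0.00379 at E13.5 and was listed at 0 at E15.5, from 190, 128 and 0 steps. With so few steps at any stage no fold is given against 0, and the fitted log2 ratio for E15.5 against E11.5, -2.69, depends on the 0.001 added. It was at percentile 9.61 of 5374 rows of like length.

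The 2 membrane proteins of the granule differed from each other, with a small difference in Ptprn2 and a nearly 3-fold one between the later stages in Slc30a8. Ptprn2, a phosphatase-like granule protein and a known autoantigen in diabetes, has the longest body of the 8. GB was 0.00509 at E11.5, 0.00525 at E13.5, then 0.00687 at E15.5, from 24916, 24858 and 33400 steps, the largest sums of the set. Its level was almost the same at the earlier stages and 1.35 times as high at E15.5 as at E11.5, with a log2 ratio of 0.37. Percentiles were 57.0, 60.2 and 67.2. Its ratio is not ranked among rows of like length, because 648 recovered lengths fell in that range but only 359 RefSeq genes do, so many of those lengths may be wrong.

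Slc30a8, the zinc transporter that loads insulin granules with zinc, had a low point at E13.5. GB was 0.00370, 0.00175 and 0.00522 in stage order, from 920, 421 and 1290 steps, at percentiles 43.7, 25.2 and 59.4. E15.5 against E13.5 gave a ratio of 2.98 and a log2 ratio of 1.18, at percentile 91.1 of 6691 rows of like length. E13.5 against E11.5 gave -0.77, at percentile 12.5. Over the whole span the log2 ratio was 0.40, and the dip rests on the E13.5 library alone.

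**Figure D2:**
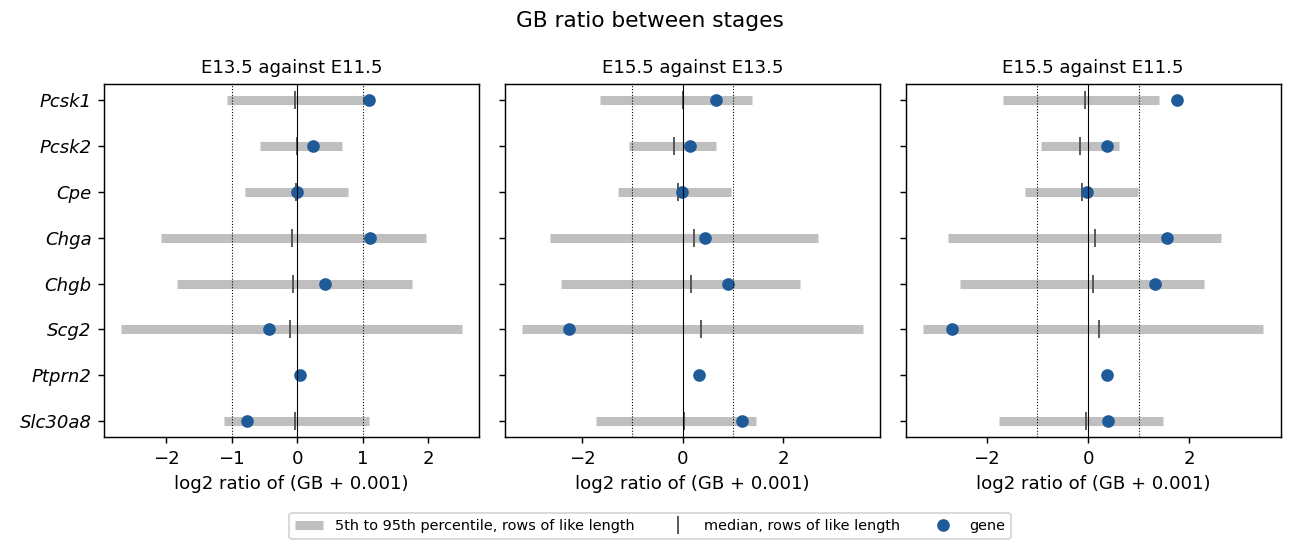
Log2 ratio of GB plus 0.001 between stages (horizontal axis, later over earlier) for each of the 8 genes (points), with the 5th to 95th percentile (grey bar) and median (tick) of rows whose body is within 2-fold of the gene's length. Dotted lines mark 2-fold, and no bar is drawn for Ptprn2. Pcsk1 lies beyond its bar for E13.5 against E11.5 and for E15.5 against E11.5, and the other genes with a bar lie within theirs.

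Counted by size, a gene was called where the ratio was at least 2-fold after adding 0.001 and the higher library reached a floor. The floor was the median of all identified values of a column, 0.00413 in GB and 0.00407 in PR. In GB, E15.5 against E11.5 had 3 of the 8 genes higher (Pcsk1, Chga and Chgb), where 26.5% of all tested rows were higher, and 1 lower (Scg2), where 22.8% were lower. With 8 genes, 3 higher and 1 lower are near that background. Pcsk1 and Chgb reached the floor at E15.5 and not at E11.5, so for them the floor favoured a higher call, and Scg2 reached it at E11.5 alone, which favoured a lower one. For E13.5 against E11.5, Chga was called higher of 4 genes above the floor (17.2% of all rows) and no gene was called lower (19.4%). Pcsk1 missed the floor in that pair. For E15.5 against E13.5, Slc30a8 was called higher of 7 genes above the floor (27.6%), and none was called lower (22.1%). Slc30a8 reached the floor at E15.5 and not at E13.5, so a higher call was favoured there too. The median log2 ratio of the 8 was 0.39 for E15.5 against E11.5, 0.39 for E15.5 against E13.5 and 0.14 for E13.5 against E11.5, where the median of all identified rows was 0 in each.

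The promoter side was examined next. The sequences before the start are shown for the 4 genes called in GB between E15.5 and E11.5, each as the 150 bases up to the start on the gene's own strand, from RefSeq on GRCm38.p6. The start is that of the RefSeq promoter entry, which equals the gene start given above for Chga, Chgb and Scg2. For Pcsk1 it lies 437 bases inside the gene (at chr13:75089857), so the Pcsk1 sequence is within the gene as RefSeq bounds it. The entry for Ptprn2 starts 25 bases inside its gene. Capitals mark TGACG or its reverse CGTCA, the core of the cAMP response element TGACGTCA, to which factors of the CREB family bind.
Pcsk1 (chr13:75089707-75089856, plus strand): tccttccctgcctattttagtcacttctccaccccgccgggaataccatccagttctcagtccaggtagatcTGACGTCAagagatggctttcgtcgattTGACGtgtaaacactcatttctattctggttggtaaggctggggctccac
Chga (chr12:102554791-102554940, plus strand): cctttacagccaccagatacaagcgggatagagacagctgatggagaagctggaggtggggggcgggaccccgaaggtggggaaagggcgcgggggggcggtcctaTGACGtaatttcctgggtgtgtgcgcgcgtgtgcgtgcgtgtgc
Chgb (chr2:132781492-132781641, plus strand): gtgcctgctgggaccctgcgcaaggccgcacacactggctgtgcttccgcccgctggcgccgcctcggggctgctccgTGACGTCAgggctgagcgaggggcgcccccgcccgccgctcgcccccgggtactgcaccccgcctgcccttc
Scg2 (chr1:79440027-79440176, minus strand): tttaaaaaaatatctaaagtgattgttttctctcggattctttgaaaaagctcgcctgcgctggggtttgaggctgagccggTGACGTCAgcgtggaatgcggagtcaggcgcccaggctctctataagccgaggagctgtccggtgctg
Of the 8 genes, 6 had a promoter entry (all but Cpe and Slc30a8). TGACGTCA was present in Pcsk1, Chgb and Scg2, with its first base 78, 72 and 68 bases before the start, and in 1.79% of 32851 RefSeq promoter windows of 300 bases. TGACG on either strand, which TGACGTCA contains, was found in 5 of the 6, all but Ptprn2, and in 20.8% of all windows. In Pcsk1 a second copy stood 50 bases before the start. The copy in Chga stood 44 bases before it and continued as TGACGTAA, and Pcsk2 held the reverse CGTCA with its first base 34 bases before the start. Of the 3 genes with the full element, GB was higher at E15.5 than at E11.5 in Pcsk1 and Chgb and at 0 in Scg2. CAGCACC and GGACAG, parts of the element bound by the neuronal repressor REST, occurred on either strand in 3 and 2 of the 6 windows, against 7.14% and 22.2% of all windows. Scg2 and Ptprn2 held both, reversed and with no base between them (CTGTCC, then GGTGCTG), just before the start in Scg2 and just after it in Ptprn2. Whether these stretches form a complete element or bind REST was not tested. The copy of CAGCACC in Chgb stood 179 bases before the start.

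Around the start, most of the 8 genes held little signal at E11.5 and more at E15.5. Their median PR percentile was 21.6 at E11.5, 23.8 at E13.5, then 61.8 at E15.5. Median PR of the 8 was 0.000702, 0.000838 and 0.0108, beside 0.00394, 0.00368 and 0.00559 for all identified rows. PR was higher at E15.5 than at E11.5 in 7 of the 8 genes, which 53.9% of all rows also were, and Scg2 was the exception. By the rule for calls, 5 of the 8 genes were at least 2-fold higher (Pcsk2, Cpe, Chga, Chgb and Ptprn2), where 50.0% of tested rows were, and none was lower (26.0%). The other 3 missed the floor. Pcsk2, Chgb and Ptprn2 reached it through the E15.5 library alone in this pair, so the floor favoured a higher call for them.

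The granins again differed in PR. Chgb had PR of 0.000162 at E11.5, 0.00776 at E13.5, then 0.0149 at E15.5, or 6, 278 and 550 steps, so its start was nearly empty at the first stage. The log2 ratio of E15.5 against E11.5 was 3.78, at percentile 94.7 of all rows. Chga had 0.00491, 0 and 0.0297, or 182, 0 and 1094 steps, which is not an order by stage. At E13.5, when its PR was empty, Chga had 561 steps in the part of SE outside PR and 762 over the body. E15.5 showed the opposite, with 26 steps outside PR. Scg2 had 34 steps at E11.5 and none at E13.5 or E15.5.

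Of the processing enzymes, Cpe had PR of 0.00437, 0.0104 and 0.0142 in stage order (162, 374 and 522 steps) while its GB was level. Its percentile was highest at E13.5, at 86.4, against 53.0 at E11.5 and 69.1 at E15.5, where PR of all rows was higher too. Pcsk2 peaked at E13.5, with PR of 0.000863, 0.00977 and 0.00750 (32, 350 and 276 steps) and percentiles of 23.8, 84.3 and 54.5. Pcsk1 had 0, 28 and 136 steps and stayed below the 50th percentile at every stage, while its body held 248, 817 and 1496. Ptprn2 had 20, 2 and 552 steps, which for E15.5 against E13.5 is a log2 ratio of 3.92. Slc30a8 never held more than 52 steps in PR.

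Between the later libraries (E15.5 against E13.5), PR was called higher in Chga and Ptprn2 of 5 genes above the floor, where 52.2% of tested rows were higher, and lower in none (24.7%). Both reached the floor at E15.5 alone, so only a higher call was open to them. For E13.5 against E11.5, PR was called higher in Pcsk2, Cpe and Chgb of 4 genes above the floor (28.8%), and lower in Chga (32.8%). Pcsk2 and Chgb reached the floor at E13.5 alone and Chga at E11.5 alone, which fixed the direction of these calls, while Cpe reached it in both libraries. Only Cpe and Chgb had higher PR at each later stage among the 5 genes that reached the floor at any stage, a pattern of any size shown by 25.5% of rows. Pcsk1 and Slc30a8 had that order too, below the floor, and no gene showed the reverse (14.7%). With PR of each library divided by its own median, Chgb kept the order and Cpe did not, with a log2 ratio of -0.15 for E15.5 against E13.5. Under quantile normalization neither kept it (-0.77 in Cpe and -0.22 in Chgb). The E15.5 library as a whole had more PR signal. After division by its own median the log2 ratios of E15.5 against E11.5 were 3.43 in Chgb, 3.00 in Ptprn2, 1.91 in Chga, 1.81 in Pcsk2 and 1.05 in Cpe. The 5 genes called in that pair were thus called there too. Quantile normalization gave 4 calls, as Cpe had a log2 ratio of 0.75.

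**Figure D3:**
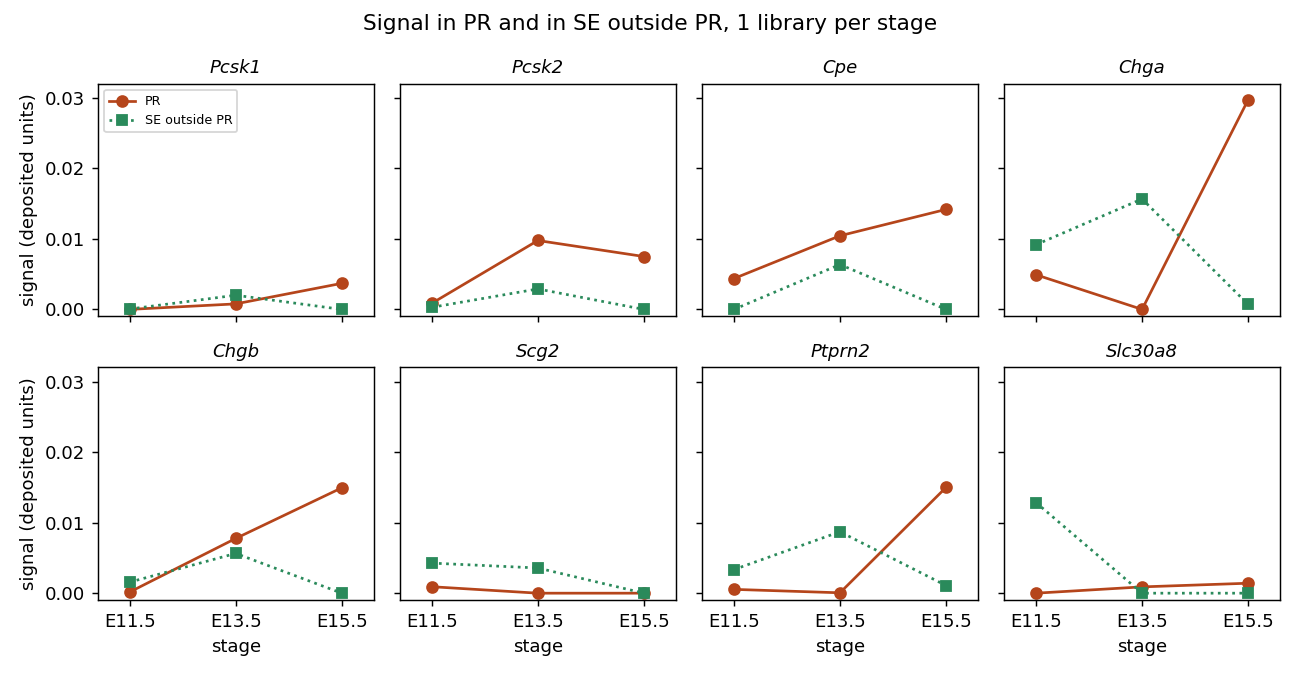
Signal (deposited units, vertical axis) in PR (circles) and in the part of SE outside PR (squares) for the 8 genes at the 3 stages, 1 library per point. At E15.5 PR lies above the squares in 7 genes and 6 genes have the squares at 0, whereas at E13.5 Chga, Scg2 and Ptprn2 have signal outside PR and almost none within it.

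Farther from the start, signal was often absent at E15.5. The part of SE outside PR was at 0 in 6 of the 8 genes at E15.5 (all but Chga and Ptprn2), in 1 at E13.5 (Slc30a8) and in 1 at E11.5 (Cpe). Over all rows it was at 0 in 32.1%, 11.7% and 8.70%. In 5 of the 8 genes that part was at 0 at E15.5 with PR above 0, so the whole SE signal came from the PR window, as in 21.1% of all rows. Slc30a8 showed the opposite at E11.5, with PR at 0 and 476 steps outside it, at percentile 90.0 for that part of the window. By stage E13.5 it had none there.

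SE as deposited combined these parts and ranked the 8 genes differently from GB. The median SE percentile was 25.2 at E11.5, 61.1 at E13.5, then 47.7 at E15.5, with 2, 5 and 4 genes above the 50th. Chga was the most stable in rank, at percentiles 71.4, 79.4 and 79.5, though its SE of 0.00704, 0.00783 and 0.0152 was not level. Cpe had 0.00219, 0.00840 and 0.00709, and Chgb 0.000863, 0.00670 and 0.00747. Both were well up at E13.5. Pcsk2 had 0.000580, 0.00633 and 0.00375, a peak at E13.5 like that of its PR. Pcsk1 stayed low at 0.0000267, 0.00140 and 0.00185, at percentiles 2.48, 17.9 and 30.6. Ptprn2 had 0.00194, 0.00438 and 0.00804. Slc30a8 had 0.00642, 0.000447 and 0.000706, and Scg2 0.00259, 0.00179 and 0, so these were the pair with less SE at E15.5 than at E11.5.

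**Figure D4:**
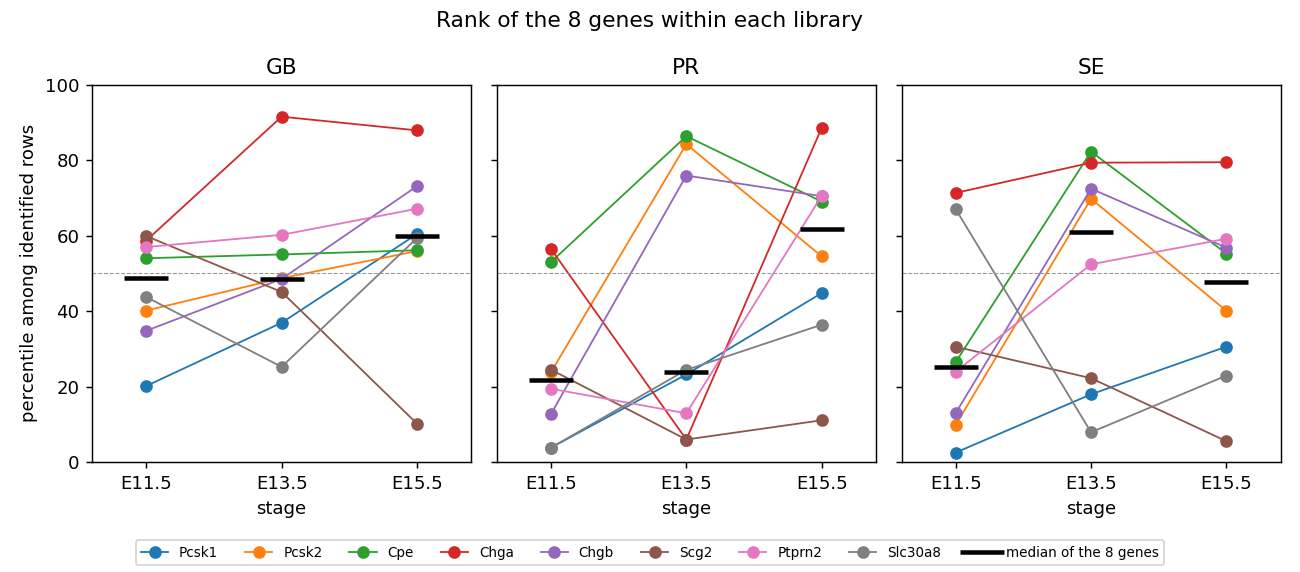
Percentile of each of the 8 genes among identified rows (vertical axis) at the 3 stages for GB, PR and SE, with the median of the 8 as a black bar. In GB all genes but Scg2 lie above the 50th percentile at E15.5, PR has its median at 21.6, 23.8 and 61.8 in stage order, and SE has its highest median at E13.5.

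The balance between start and body also differed by stage. The median over the 8 genes of PR over GB, each with 0.001 added, was 0.368 at E11.5, 0.565 at E13.5, then 1.58 at E15.5. Over all identified rows it was 0.957, 0.945 and 1.04, so the median of the 8 lay below that of all rows at the earlier stages and above it at E15.5. A scale factor does not cancel from these values, because of the 0.001 added. Without it, over the genes with GB above 0 (8, 8 and 7), the median was 0.137, 0.384 and 1.69 in stage order, beside 0.770, 0.740 and 1.08 for all such rows. PR exceeded GB in 0 of the 8 genes at E11.5, in 3 (Pcsk2, Cpe and Chgb) at E13.5 and in 5 at E15.5, against 44.9%, 43.2% and 51.2% of all rows. At E15.5 it did so in Pcsk2, Cpe, Chga, Chgb and Ptprn2, while Pcsk1 and Slc30a8 had more signal over the body than at the start and Scg2 had neither. The windows of Scg2 and Chga overlap their short bodies to a large part, so for these genes PR, SE and GB share positions. Chgb, with a body of 13437 positions, shares part of it too. Its sums were 6, 278 and 550 steps in PR beside 232, 328 and 704 in GB. How much of its GB difference lies in the shared positions was not tested.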

How the data were processed

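H3K36me3 CUT&Tag signal was taken from 3 deposited files of 25493 rows, 1 per library. Alignment tool and build are Bowtie2 2.4.2 and mm10, per the submitters' processing notes. Filters, gene models and scaling are not given in the sources used here. In each file the authors deposited mean signal per position in 3 columns, per the file headers PR, GB and SE. Rows without an identifier (1175, 4.61%) were left out.

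Window sums were whole multiples of a step of 0.162 at E11.5, 0.167 at E13.5, then 0.163 at E15.5. Read depth is unknown. GB lengths were recovered for 20544 rows as the smallest length that made all sums, kept to 2 decimals, whole multiples within 0.0065. Rows with GB above 0 in fewer than 2 libraries were given no length. Python 3.11.15, numpy 2.4.6 and pandas 2.3.3 were used, and the recovery and the 2-fold calls were tested on simulated data.

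Percentiles are midranks over identified rows. Ratios are log2(value + 0.001), later over earlier, computed on the whole table. The text names the 8 members only, as their symbols came with the list of identifiers. Lists of other genes, among them cell type markers, were not used, because no table pairs their identifiers with symbols. The members, lists, floor and pseudocount were chosen with earlier results of these data known. Alternatives were other pseudocounts, floors, a 1.5-fold threshold, scalings and ranking sets.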

Additional observations from a re-analysis of the deposited data

How the results depend on the processing

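With 1 library per stage and unknown depth, no result has a measure of spread. Of 695 recomputed values, 508 stayed within 1.5-fold of the main value (log2 ratios unlogged, percentiles within 10 points) and 187 moved. Small log2 ratios could thus near 0 or change sign within the 508. No called ratio changed sign. Of the 10 uncalled ratios that did, 6 are GB ratios of Cpe close to 0, after division by the median GB or quantile normalization. The others are for E15.5 against E13.5. Quantile normalization gave -0.28 in place of 0.45 for Chga in GB, -0.77 in place of 0.41 for Cpe in PR and -0.22 in place of 0.86 for Chgb in PR, and dividing PR by its own median gave -0.15 for Cpe. Genes higher in GB at each later stage were 6 after division by the median GB (23.5% of rows above the floor). They were 5 under quantile normalization (16.4%), with Cpe in place of Chga. For PR, above the floor, they were 2 of 5 as reported (25.5% of rows) and 3 of 6 by the median GB (27.1%). Quantile normalization left 0 of 5 (16.1%) and division by the PR median 1 of 5 (21.6%). Leaving out a pseudocount of 1, the log2 GB ratio of E15.5 against E11.5 was 0.50 to 2.47 for Pcsk1. It was 0.85 to 1.76 for Chga and 0.53 to 1.58 for Chgb. Larger pseudocounts shrink ratios by construction, and 1 to near 0.

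Counts below are of members called at least 2-fold higher, for the first pair (E13.5 against E11.5), the second (E15.5 against E13.5) and the last (E15.5 against E11.5). For GB they were 1, 1 and 3 as reported, 1, 2 and 3 with a pseudocount of 0.0001, 0, 0 and 1 with 0.005, and 0 throughout with 0.01 or 1. They were 0 with a floor 5 times higher, which the GB of no member reached, so no call was open. With no floor or a floor 5 times lower they were 2 for the first pair. For the second pair they were 3 at 1.5-fold and 2 after dividing by the median GB. GB calls lower, 0, 0 and 1 as reported, became 1 for the second pair with no floor or one 5 times lower. The 1 lower call, Scg2, became 0 with pseudocounts of 0.01 and 1, with the higher floor and over rows of at least 10000 positions, a limit chosen after seeing the data. Scg2 (5659 positions) falls outside that limit and did not reach the higher floor, so these 0 counts were fixed. For PR, higher calls were 3, 2 and 5 as reported. A pseudocount of 0.01 gave 0 for the first pair and 3 for the last, a pseudocount of 1 gave 0, and the higher floor gave 0, 1 and 1. Only Chga at E15.5 (0.0297) reached that floor, so no other PR call was open. Dividing by the median GB gave 4 for the second pair. The 1 lower PR call of the first pair, Chga, became 0 with pseudocounts of 0.005, 0.01 and 1 and with the higher floor, and quantile normalization gave 1 lower for the second pair.

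The median GB percentile at E15.5 was 72.7 among rows of at least 50000 positions and 50.3 among rows above 0, and the median PR percentile at E13.5 was 43.5 among rows above 0, which leaves out the members at 0. The median of PR over GB at E11.5 was 0.153 with a pseudocount of 0.0001 and 0.137 without one, an alternative chosen after seeing the data, as were the PR counts after division by the PR median, which equalled those reported, and the stage orders above. With the part of SE outside PR in place of PR it was 0.695, 1.09 and 0.169 in stage order, so the stages ranked differently. The cause was not tested. No paired analysis was possible, and nothing was tested.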

Other observations

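The position of the windows was worked out from all rows. Where the recovered body had 500 to 3000 positions, the GB sum was within the PR sum in 98.7 to 99.2% of 1562 rows, depending on the library. For bodies of 3000 to 6000 positions that share was 66.0 to 76.8% of 2254 rows, while the GB sum was within the SE sum in 99.1 to 99.3%. Between 6000 and 9000 positions the share within SE was 79.5 to 84.9%. PR thus holds about the first 3000 positions of a gene from one end and SE about 6000.

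Rows with a body length found once in the RefSeq table were placed by that length, a match that is wrong for some rows. Across 66 pairs of genes on opposite strands whose starts lay within 1000 positions, the Spearman correlation of PR was 0.617 at E11.5, 0.786 at E13.5, then 0.408 at E15.5. For the part of SE outside PR it was 0.605, 0.672 and 0.405. Across 39 pairs with ends that close, PR gave -0.219, -0.018 and -0.017, and SE outside PR gave 0.274, 0.015 and -0.020. Pairs with close starts share window positions under this reading, so the correlations describe the windows and not the genes.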
